A study of Homo sapiens with 12 samples.

Results

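The 35 genes described here make lysosomal enzymes, lysosomal membrane proteins and the proton pump of the lysosome, together with the transcription factors that switch such genes on. They were chosen by name, from a list of lysosome genes, V-ATPase subunits and MiT/TFE factors, and not by their measured values. Earlier results of these data were known when the choice was made. All 35 were among the 26364 genes of the deposited tables, and all 35 passed the filter on low expression that left 11892 genes to test. Expression was measured by RNA sequencing in HMLE cells, which are human mammary epithelial cells grown as an immortalised line. HMLE-Twist cells, labelled as the EMT model (cells after an epithelial to mesenchymal transition, driven here by the transcription factor TWIST1), and HMLE-pBp cells, labelled nonEMT, each received either 0.2 uM salinomycin, a potassium ionophore, or DMSO as the mock, for 24 hours. Each of the 4 groups holds 3 biological replicates, and the labels give no number of clones for either line.

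The lysosome breaks down proteins, glycans and lipids with hydrolases that work at acid pH. The acid is made by the V-ATPase, in which a cytosolic V1 sector burns ATP and drives protons through a membrane-bound V0 sector, so both sectors are needed for pumping. Many lysosomal genes carry a palindromic E-box, called the CLEAR element, near the start of transcription, where the MiT/TFE factors TFEB, TFE3 and MITF can bind. These factors are held in the cytosol when mTORC1 is active on the lysosomal surface and enter the nucleus when it is not, so their mRNA level does not report their activity.

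The salinomycin and mock tables were deposited in different units and normalised separately, so whole reads were recovered from each and scaled together before any comparison, as FPKM (fragments per kilobase of gene and per library size, a level per gene length). The libraries held 17.93 to 26.76 megareads after recovery. The lines matched their labels: epithelial markers summed to 30.9 to 48.6 FPKM in HMLE-Twist cells with salinomycin, 13.1 to 16.8 FPKM in HMLE-Twist with mock, 2543.4 to 2660.4 FPKM in HMLE-pBp with salinomycin and 2701.4 to 3009.9 FPKM in HMLE-pBp with mock. The higher sum with salinomycin in HMLE-Twist came from LAMB3, which averaged 35.8 FPKM, against 9.85 FPKM with mock. KRT5 went the other way, from 2.82 FPKM with mock to 0.762 FPKM. Of the 8 markers, 1 averaged at least 1 FPKM in HMLE-Twist with salinomycin and 3 with mock. TWIST1 itself averaged 915.3 ± 245.8 FPKM in HMLE-Twist with salinomycin and 716.8 ± 339.5 FPKM with mock, and 2.14 ± 0.275 FPKM in HMLE-pBp with salinomycin and 2.51 ± 0.0358 FPKM with mock (SD, n = 3 each). Of the 10 macrophage and leukocyte markers, whose cells are rich in lysosomes, TYROBP was at 0 in all 4 groups and PTPRC averaged at most 0.0145 FPKM, while the lysosomal glycoprotein CD68 and the receptor CD14 made up most of the sum. Within groups, the mock libraries of HMLE-Twist lay farthest apart, replicate 1 from replicate 3.

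Promoter windows from RefSeq (build GRCh38.p14, 250 bases before to 50 bases after the start of transcription) were at hand for 26 of the 35 genes. The 6-letter E-box CACGTG, which reads the same on both strands, stood in the windows of 9 of these 26 genes (34.6%), against 8.77% of all 27305 genes with a window. The longer form TCACGTGA, which contains it, stood in 6 of the 26 (23.1%), against 1.18% of all genes, and the full CLEAR element, which is that form with a G before it and a C after it, in 2 of the 26 (7.7%), against 0.42%. These shares are a description and not a test, since many lysosomal genes are known to carry this element. The 27305 genes were not filtered on expression, as the 35 were, nor matched for base content. The site nearest the start is shown for each of the 9 genes because their responses are set beside those of the other genes below. Each is written 5′ to 3′ on the strand of its gene, with the E-box in capitals and 8 bases on either side.
MCOLN1, chr19:7522602-7522623, plus strand: taccgggtCACGTGaccgaggc
ATP6V1G1, chr9:114587703-114587724, plus strand: tgtgcggtCACGTGacaacggg
CTSA, chr20:45891302-45891323, plus strand: ccggagttCACGTGactcgtac
LAMP1, chr13:113297230-113297251, plus strand: gcgcagctCACGTGacaagcgc
ATP6V0D1, chr16:67481203-67481224, minus strand: cttatggtCACGTGaggcgctt
CLN3, chr16:28492062-28492083, minus strand: ggtgctgtCACGTGatccgaca
CTSD, chr11:1763961-1763982, minus strand: gccgcgccCACGTGaccggtcc
ATP6V0B, chr1:43974913-43974934, plus strand: cggcgcatCACGTGggcgagtt
NEU1, chr6:31862934-31862955, minus strand: tgcgtgatCACGTGggaggaga
LAMP1 held 6 E-boxes in its window, ATP6V0B, CTSA, CLN3 and MCOLN1 held 2 each, and ATP6V1G1, ATP6V0D1, CTSD and NEU1 held 1 each. The MCOLN1 and ATP6V1G1 sites are the full CLEAR element. The 17 genes with a window but no E-box in it were ATP6V1D, ATP6V1E1, ATP6V1F, ATP6V0A1, ATP6V0C, ATP6AP1, CTSZ, TPP1, GLA, GLB1, GUSB, LIPA, NPC2, SCARB2, TFEB, TFE3 and MITF. ATP6V1A, ATP6V1B2, ATP6V1C1, ATP6V1H, ATP6V0E1, CTSB, HEXA, NAGLU and LAMP2 are named only.

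The first comparison asks what salinomycin did to these genes in HMLE-Twist cells. The lysosomal proteases rose: CTSB, CTSA, CTSD and TPP1 were 1.5-fold to 1.74-fold higher with salinomycin than with mock, and so did the glycosidases HEXA, NAGLU and NEU1. Of the V-ATPase genes ATP6V0A1 rose and ATP6V1A and ATP6V0E1 fell, and the factor MITF fell. In all, 8 of the 35 genes rose and 3 fell (11 of 35, 31.4%), where 26.2% of all tested genes were called, 12.8% rising and 13.5% falling. Calls are limma tests at a Benjamini-Hochberg adjusted p under 0.05 over all 11892 genes, and fold changes are on the log2(FPKM + 1) scale. Every salinomycin library was above every mock library for 13 of the 35 genes and below for 3, where the groups did not overlap for 40.0% of all tested genes, 19.1% higher and 21.0% lower. The median log2 fold change of the 35 genes was 0.12, beside -0.01 over all tested genes. The count was 7 of the 35 without salinomycin replicate 1 or without salinomycin replicate 3 of HMLE-Twist, and 14 without mock replicate 3 of HMLE-Twist (11 rising and 3 falling).

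CTSB, cathepsin B, a cysteine protease, had 349.9, 319.5 and 354.4 FPKM in HMLE-Twist with salinomycin, against 167.8, 208.2 and 212.0 FPKM with mock. Every salinomycin library was above every mock library, and the log2 fold change was 0.80 (SE 0.091, adjusted p = 8.97e-05). It had the highest FPKM of the 35 genes in all 3 salinomycin libraries and in 2 of the 3 mock libraries, and made up 16.3% of their summed FPKM with salinomycin, against 11.1% with mock.
CTSA, the carboxypeptidase that also protects lysosomal sialidase and beta-galactosidase, had 83.6, 77.7 and 82.5 FPKM with salinomycin, against 44.8, 52.1 and 54.0 FPKM with mock. The groups did not overlap (log2 fold change 0.68, SE 0.088, adjusted p = 0.000213). TPP1, a protease that removes tripeptides from protein ends, had 45.2, 45.1 and 42.2 FPKM with salinomycin, against 30.7, 29.4 and 27.1 FPKM with mock, and again the groups were apart (0.59, SE 0.075, adjusted p = 0.000207).
CTSD, the aspartic protease cathepsin D, had 152.0, 139.7 and 161.9 FPKM with salinomycin, against 65.5, 104.6 and 117.9 FPKM with mock. The salinomycin libraries lay close together and above the scattered mock libraries (0.69, SE 0.20, adjusted p = 0.0242). The call was lost without mock replicate 1 (adjusted p = 0.0642), the lowest of the 6 libraries, and without salinomycin replicate 1 (0.0673) or 3 (0.0815). CTSZ, cathepsin Z, had 115.4, 115.7 and 121.5 FPKM with salinomycin, against 79.0, 101.1 and 102.6 FPKM with mock, without overlap, and was not called (adjusted p = 0.0686). It was called without mock replicate 3 of HMLE-Twist (0.0478) or salinomycin replicate 1 of HMLE-pBp (0.0355).

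Among the glycosidases, which take sugars off glycoproteins and glycolipids, NAGLU, an enzyme of heparan sulphate breakdown, had 13.4, 14.6 and 15.2 FPKM with salinomycin, against 7.63, 11.6 and 11.4 FPKM with mock. Its log2 fold change was 0.48 (SE 0.16, adjusted p = 0.0394). This call was lost without salinomycin replicate 1 (0.0668), 2 (0.0947) or 3 (0.119) or mock replicate 1 (0.113) of HMLE-Twist, and without mock replicate 2 (0.0568) or 3 (0.0501) of HMLE-pBp, which enter through the shared estimate of the spread. HEXA, the alpha chain of beta-hexosaminidase, had 48.3, 46.4 and 47.1 FPKM with salinomycin, against 33.8, 37.7 and 36.7 FPKM with mock, and rose 1.3-fold. NEU1, the lysosomal sialidase, had 6.5, 6.78 and 6.45 FPKM with salinomycin, against 4.3, 5.09 and 5.2 FPKM with mock, and also rose 1.3-fold, a call lost without salinomycin replicate 2 (adjusted p = 0.0565). GLA, GLB1 and GUSB, which cleave alpha-galactose, beta-galactose and glucuronic acid, had log2 fold changes of 0.20, 0.11 and 0.12 and were not called.

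In the proton pump, ATP6V1A, the subunit that binds and hydrolyses ATP, had 20.1, 20.4 and 18.2 FPKM with salinomycin, against 32.3, 25.1 and 22.7 FPKM with mock, and fell to 0.75 times the mock level. This call was lost without salinomycin replicate 1 (adjusted p = 0.0576) or 3 (0.0974) or mock replicate 1 (0.0633). The other 7 V1 subunits had log2 fold changes between -0.12 and 0.12 and none was called.
ATP6V0E1, a small V0 subunit, had 144.0, 138.2 and 151.8 FPKM with salinomycin, against 179.1, 189.4 and 193.3 FPKM with mock, and fell to 0.774 times the mock level. ATP6V0A1, the V0 subunit that forms the proton path with the c ring, rose 1.19-fold. Its call was lost without any 1 of 7 libraries: salinomycin replicate 1 (0.0887), 2 (0.0618) or 3 (0.139) and mock replicate 2 (0.135) or 3 (0.0571) of HMLE-Twist, and salinomycin replicate 2 (0.054) or mock replicate 2 (0.0527) of HMLE-pBp. ATP6V0B and ATP6V0C, which build the c ring, had log2 fold changes of 0.40 and 0.39, ATP6V0D1 of -0.01 and the accessory protein ATP6AP1 of 0.21, with no call, though ATP6V0B was called without mock replicate 3 of HMLE-Twist (0.0122).

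The 5 lysosomal membrane proteins and the 2 lipid-handling proteins gave no call in HMLE-Twist. MCOLN1, the lysosomal calcium channel TRPML1, had 12.1, 10.7 and 13.4 FPKM with salinomycin, against 6.72, 7.59 and 10.7 FPKM with mock, with the lowest salinomycin library level with the highest mock library (adjusted p = 0.0711). It was called without mock replicate 3 of HMLE-Twist (0.0186) or salinomycin replicate 1 of HMLE-pBp (0.0469). LAMP1, the main coat protein of the lysosomal membrane, had 136.8, 128.1 and 149.1 FPKM with salinomycin, against 96.0, 105.4 and 123.3 FPKM with mock, without overlap (adjusted p = 0.0669), and was called without mock replicate 3 (0.0297). LAMP2, SCARB2 and CLN3 had log2 fold changes of -0.07, -0.01 and 0.07. LIPA, the acid lipase, and NPC2, which hands cholesterol on, had 0.19 and -0.01, and LIPA was called as a rise without mock replicate 1 (0.0268).
Among the MiT/TFE factors, MITF had 3.5, 3.73 and 3.45 FPKM with salinomycin, against 6.67, 5.21 and 4.58 FPKM with mock. It fell in every salinomycin library below every mock library (log2 fold change -0.49, SE 0.12, adjusted p = 0.00951). TFE3 had 27.5, 24.8 and 26.7 FPKM with salinomycin, against 21.2, 23.7 and 25.5 FPKM with mock, and TFEB had 4.06, 4.46 and 4.59 FPKM with salinomycin, against 2.58, 4.35 and 5.42 FPKM with mock. Neither was called (adjusted p = 0.2 for TFE3 and 0.735 for TFEB).

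Within each line, salinomycin and mock libraries of the same replicate number deviated together, so each comparison was also fitted with the replicate number as a block within the line. With this pairing, 17 of the 35 genes were called in HMLE-Twist (48.6%), 14 rising and 3 falling, where 40.2% of all tested genes were called, 19.6% rising and 20.7% falling. The 6 further rises under pairing were MCOLN1 (adjusted p = 0.00303), LAMP1 (0.00314), ATP6V0B (0.00746), CTSZ (0.0103), GLA (0.0351) and ATP6V0C (0.0465). Replicate 3 held the highest ATP6V0C level in each of the 4 groups, at 100.1 FPKM in HMLE-Twist with salinomycin and 91.9 FPKM with mock, where replicate 1 had 73.3 and 41.8 FPKM.

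**Figure D1:**
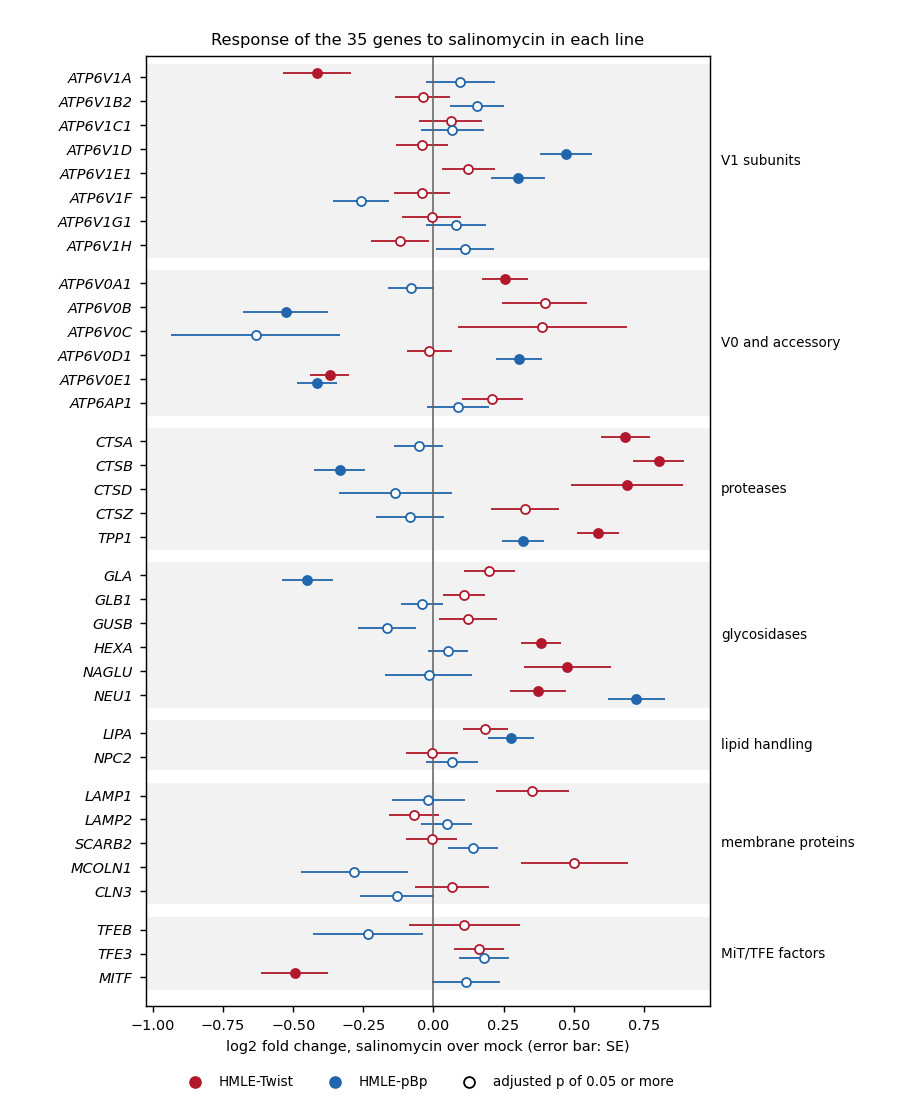
Log2 fold change of salinomycin over mock (x axis, log2(FPKM + 1) scale) for each of the 35 genes, HMLE-Twist in red above HMLE-pBp in blue, with the SE as error bar and filled points at an adjusted p under 0.05 (n = 3 libraries per group). All 5 proteases lie to the right of 0 in HMLE-Twist, from 0.33 to 0.80, and CTSB lies on opposite sides of 0 in the 2 lines.

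The second comparison is the same treatment in HMLE-pBp cells. Here NEU1 and the pump subunits ATP6V1D, ATP6V1E1 and ATP6V0D1 rose together with TPP1 and LIPA, while ATP6V0B, ATP6V0E1, CTSB and GLA fell. That is 6 rising and 4 falling (10 of 35, 28.6%), where 18.7% of all tested genes were called, 9.53% rising and 9.20% falling. Every salinomycin library was above every mock library for 7 of the 35 genes and below for 5, where the groups did not overlap for 41.4% of all tested genes, 20.3% higher and 21.1% lower. The median log2 fold change of the 35 genes was 0.05, beside -0.01 over all tested genes. The count was 5 without mock replicate 2 or without mock replicate 3 of HMLE-pBp, and 6 without salinomycin replicate 1.

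NEU1 had 11.4, 9.36 and 9.0 FPKM in HMLE-pBp with salinomycin, against 5.07, 5.72 and 6.0 FPKM with mock. The groups were well apart, and its 1.65-fold rise was the largest among the 35 genes in this line (log2 fold change 0.72, SE 0.10, adjusted p = 0.00071). GLA had 54.4, 61.9 and 58.1 FPKM with salinomycin, against 70.8, 82.8 and 86.2 FPKM with mock, and fell without overlap (-0.45, SE 0.091, adjusted p = 0.00609). CTSB had 212.9, 228.2 and 218.7 FPKM with salinomycin, against 269.4, 270.3 and 292.7 FPKM with mock, a fall of a gene that rose in the other line (-0.33, SE 0.091, adjusted p = 0.0251). The CTSB call was lost without salinomycin replicate 1 (0.0834) or mock replicate 2 (0.0595) or 3 (0.105) of HMLE-pBp. TPP1 had 45.4, 48.0 and 44.7 FPKM with salinomycin, against 34.6, 39.0 and 36.7 FPKM with mock, and rose 1.25-fold.

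In the pump, ATP6V1D, a subunit of the turning central stalk, had 46.3, 39.9 and 34.9 FPKM with salinomycin, against 27.4, 28.6 and 29.9 FPKM with mock. All 3 salinomycin libraries were higher, though spread over a wider range (log2 fold change 0.47, SE 0.093, adjusted p = 0.00507). ATP6V0B had 127.3, 154.7 and 147.2 FPKM with salinomycin, against 183.9, 206.2 and 229.8 FPKM with mock, without overlap (-0.53, SE 0.15, adjusted p = 0.0319). Its call was lost without salinomycin replicate 1 (0.122) or mock replicate 2 (0.0851) or 3 (0.129) of HMLE-pBp. ATP6V0E1 had 287.9, 287.6 and 269.0 FPKM with salinomycin, against 357.7, 369.4 and 400.9 FPKM with mock, and fell as it did in HMLE-Twist (-0.42, SE 0.070, adjusted p = 0.00224).
ATP6V0D1, which links the stalk to the c ring, had 51.9, 46.0 and 43.2 FPKM with salinomycin, against 38.3, 37.0 and 38.0 FPKM with mock, and rose 1.24-fold, a call lost without salinomycin replicate 1 (0.0895) or mock replicate 2 (0.0806) or 3 (0.075) and at the threshold without mock replicate 1 (0.05). ATP6V1E1, part of the outer stalk, rose 1.23-fold with the weakest p of the 10 (adjusted p = 0.0464), and lost its call without any 1 of 10 of the 12 libraries (0.0509 to 0.156), the exceptions being HMLE-Twist mock replicate 1 and HMLE-pBp salinomycin replicate 3. LIPA rose 1.21-fold, and lost its call without any 1 of 6 libraries, namely salinomycin replicate 1 (0.11) or 2 (0.0898) and mock replicate 1 (0.0939), 2 (0.102) or 3 (0.0611) of HMLE-pBp and salinomycin replicate 3 of HMLE-Twist (0.0533).
The remaining V1 subunits ATP6V1A, ATP6V1B2, ATP6V1C1, ATP6V1F, ATP6V1G1 and ATP6V1H lay between -0.26 and 0.16 with no call (ATP6V1F was called as lower without salinomycin replicate 1 of HMLE-pBp, 0.0281), as did ATP6V0A1 at -0.08 and ATP6AP1 at 0.09. ATP6V0C had 91.1, 118.8 and 180.8 FPKM with salinomycin, against 177.2, 169.3 and 245.9 FPKM with mock, a wide spread that left -0.63 uncalled (adjusted p = 0.157). With pairing by replicate number, 13 of the 35 were called (37.1%, beside 36.4% of all tested genes), the additions being ATP6V0C (adjusted p = 0.00715), ATP6V1F (0.0245) and MCOLN1 (0.0446), all lower.

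The other genes showed no call in HMLE-pBp. CTSA, CTSD and CTSZ had log2 fold changes of -0.05, -0.14 and -0.08, GLB1, GUSB, HEXA and NAGLU of -0.04, -0.17, 0.05 and -0.02, and NPC2 of 0.07. LAMP1, LAMP2, SCARB2, MCOLN1 and CLN3 had -0.02, 0.05, 0.14, -0.28 and -0.13. TFEB, TFE3 and MITF had -0.23, 0.18 and 0.12. ATP6V0E1, TPP1 and NEU1 were called in the same direction in both lines, which is 8.57% of the 35, where 6.04% of all tested genes were so called. Of the calls in HMLE-Twist these are 3 of 11 (27.3%), beside 718 of 3120 over all genes (23.0%), and of the calls in HMLE-pBp 3 of 10, beside 718 of 2227 (32.2%).

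**Figure D2:**
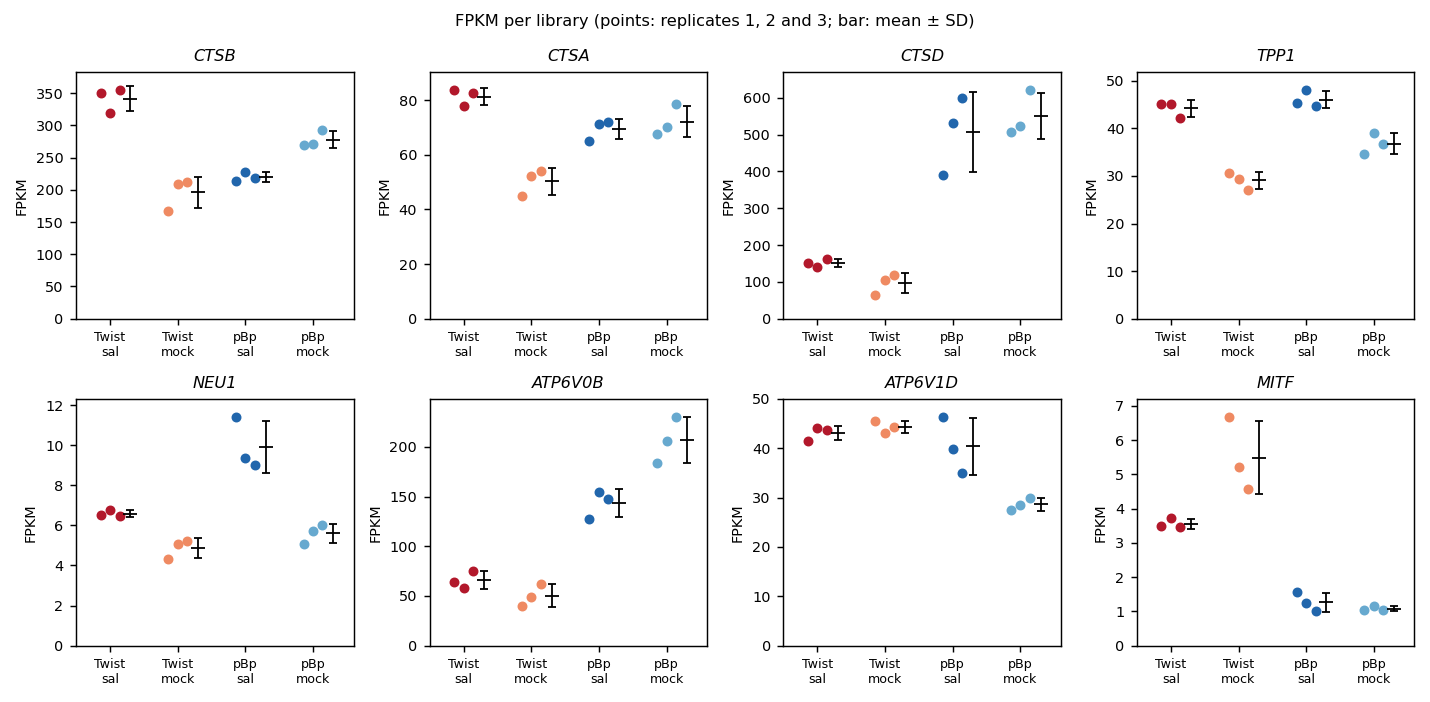
FPKM per library (y axes, linear, from 0) of 8 genes in HMLE-Twist with salinomycin and mock and HMLE-pBp with salinomycin and mock, with points for the 3 replicates and a bar for mean ± SD. CTSB of HMLE-Twist lies above both HMLE-pBp groups with salinomycin, at 319.5 to 354.4 FPKM, and below them with mock, at 167.8 to 212.0 FPKM, while ATP6V1D of HMLE-pBp lies at 34.9 to 46.3 FPKM with salinomycin and 27.4 to 29.9 FPKM with mock.

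Whether the lines responded differently was tested as the difference of the 2 responses, HMLE-Twist minus HMLE-pBp. It was called for 7 of the 35 genes, 5 higher and 2 lower, where 13.5% of all tested genes were called, 6.94% higher and 6.61% lower: ATP6V0B, CTSA, CTSB, GLA and HEXA responded higher in HMLE-Twist and ATP6V1D and MITF lower. The largest was CTSB, at 1.14 (SE 0.13, adjusted p = 0.000387), a 2.2-fold gap between its rise in HMLE-Twist and its fall in HMLE-pBp. For ATP6V0B the difference was 0.92 (SE 0.21, adjusted p = 0.0177), for CTSA 0.74 (SE 0.12, adjusted p = 0.00388) and for GLA 0.65 (SE 0.13, adjusted p = 0.00866). For MITF it was -0.61 (SE 0.17, adjusted p = 0.0348) and for ATP6V1D -0.51 (SE 0.13, adjusted p = 0.0255). HEXA, at 0.33, sat at the threshold (adjusted p = 0.0473).
CTSB, CTSA and GLA kept this call without any 1 library. The ATP6V0B call was lost without mock replicate 3 of HMLE-pBp (0.0517), and the ATP6V1D call without salinomycin replicate 1 (0.0674) or 3 (0.0587) of HMLE-Twist or without salinomycin replicate 2 (0.0513) or mock replicate 1 (0.0524) or 2 (0.0594) of HMLE-pBp. Those of HEXA and MITF were lost without most single libraries (up to 0.107 and 0.0842). The count of 7 became 4 without salinomycin replicate 1 or 3 of HMLE-Twist, salinomycin replicate 2 of HMLE-pBp or mock replicate 2 or 3 of HMLE-pBp, and 11 without mock replicate 3 of HMLE-Twist. The genes gained there were MCOLN1 (0.0237), ATP6V1A (0.025), ATP6V0C (0.0286) and CTSD (0.0287). ATP6V0D1 (0.0414) and ATP6V0A1 (0.043) were called without mock replicate 1 of HMLE-Twist, CTSD without salinomycin replicate 3 of HMLE-pBp (0.0476) and MCOLN1 without mock replicate 1 of HMLE-pBp (0.0491).
With pairing by replicate number the difference was called for 16 of the 35 genes (45.7%), 13 higher in HMLE-Twist and 3 lower, where 32.4% of all tested genes were called, 16.9% higher and 15.5% lower. Besides the 7, these were MCOLN1 (adjusted p = 0.00345), ATP6V0C (0.0051), CTSD (0.0163), LAMP1 (0.0181), CTSZ (0.0232), ATP6V0A1 (0.0247), NAGLU (0.0276) and TPP1 (0.0356), all higher, and ATP6V1A (0.0127), lower. The 5 proteases all had a positive difference, between 0.27 and 1.14.

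The third comparison sets the lines against each other under the same treatment. With mock, HMLE-Twist cells held less mRNA for nearly every lysosomal enzyme and membrane protein, more for most of the V1 sector and less for most of the V0 sector, and more of the factors TFE3 and MITF. Of the 35 genes, 9 were higher and 22 lower in HMLE-Twist (31 of 35, 88.6%), where 73.4% of all tested genes differed, 36.1% higher and 37.3% lower. The median log2 fold change was -0.51, beside -0.003 over all tested genes. With salinomycin, 9 were higher and 19 lower (28 of 35), where 63.4% of all tested genes differed, 31.4% higher and 32.1% lower, with a median of -0.33 beside 0.01. Since these are bulk samples, fewer cells of a type and less RNA per cell cannot be told apart.

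CTSD showed the widest gap with mock, at 65.5, 104.6 and 117.9 FPKM in HMLE-Twist against 506.7, 524.6 and 620.7 FPKM in HMLE-pBp (log2 fold change -2.55, SE 0.20, adjusted p = 2.07e-07). With salinomycin it had 152.0, 139.7 and 161.9 FPKM in HMLE-Twist against 389.2, 531.7 and 600.0 FPKM in HMLE-pBp (-1.72, SE 0.20, adjusted p = 1.02e-05). The leading protease thus differed by line: CTSB stood above CTSD in every HMLE-Twist library, at ratios of 2.19 to 2.3 with salinomycin and 1.8 to 2.56 with mock, and below it in every HMLE-pBp library, at ratios of 0.364 to 0.547 with salinomycin and 0.472 to 0.532 with mock.
With mock, all 5 proteases were lower in HMLE-Twist, CTSZ by 0.84, CTSA and CTSB by 0.51 each and TPP1 by 0.33 on the log2 scale. With salinomycin, CTSB was higher in HMLE-Twist than in HMLE-pBp (log2 fold change 0.63, adjusted p = 6.26e-05) and so was CTSA (0.23, adjusted p = 0.0397), while CTSZ stayed lower and TPP1 was not called. The CTSA call with salinomycin was lost without salinomycin replicate 1 (0.112) or 3 (0.0996) of HMLE-Twist, without salinomycin replicate 1 (0.119), 2 (0.0604) or 3 (0.0518) of HMLE-pBp, and without mock replicate 2 of HMLE-pBp (0.0535).

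The glycosidases and lipid proteins were also lower in HMLE-Twist. NPC2 had 87.0, 78.0 and 82.3 FPKM in HMLE-Twist against 262.8, 302.2 and 264.3 FPKM in HMLE-pBp with salinomycin (-1.73, SE 0.092, adjusted p = 6.15e-09), and 80.0, 82.3 and 85.9 FPKM against 231.0, 289.6 and 272.9 FPKM with mock (-1.66, SE 0.092, adjusted p = 7.8e-09). The gap was near 3-fold in both conditions, at 0.301 and 0.317 times the HMLE-pBp level. GLA stood at 0.569 times the HMLE-pBp level with salinomycin and 0.363 times with mock (-1.46, SE 0.091, adjusted p = 2.2e-08). GUSB stood at 0.489 times with salinomycin (-1.03, SE 0.10, adjusted p = 2.64e-06) and 0.401 times with mock. GUSB, like ATP6V0C, ATP6V0E1, ATP6V1E1 and ATP6V1G1, has pseudogene copies of the same name, 7 of which are in the tables for GUSB, so its counts are uncertain where reads were shared. HEXA, GLB1 and LIPA were lower in both conditions. NAGLU was lower with mock and not called with salinomycin (adjusted p = 0.121, though 0.0239 without salinomycin replicate 1 of HMLE-pBp and 0.0459 without mock replicate 1 of HMLE-Twist), and NEU1 was lower with salinomycin (0.697 times) and not called with mock (adjusted p = 0.145).

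In the V-ATPase the sectors parted. With mock, 6 of 8 V1 subunits (ATP6V1A, ATP6V1B2, ATP6V1C1, ATP6V1D, ATP6V1E1 and ATP6V1F) were higher in HMLE-Twist, ATP6V1G1 was lower and ATP6V1H was not called, with a median log2 fold change of 0.46. Of the 6 V0 and accessory genes, ATP6V0D1 was higher and ATP6V0A1, ATP6V0B, ATP6V0C, ATP6V0E1 and ATP6AP1 were lower, with a median of -0.90. ATP6V0B had 40.1, 49.0 and 62.2 FPKM in HMLE-Twist against 183.9, 206.2 and 229.8 FPKM in HMLE-pBp (-2.03, SE 0.15, adjusted p = 1.24e-07), and ATP6V0C had 41.8, 52.3 and 91.9 FPKM against 177.2, 169.3 and 245.9 FPKM (-1.71, SE 0.30, adjusted p = 0.000236).
With salinomycin, 4 V1 subunits (ATP6V1B2, ATP6V1C1, ATP6V1E1 and ATP6V1F) were higher in HMLE-Twist, ATP6V1G1 and ATP6V1H were lower, and ATP6V1A and ATP6V1D were not called. ATP6V0B had 64.2, 58.3 and 75.5 FPKM in HMLE-Twist against 127.3, 154.7 and 147.2 FPKM in HMLE-pBp (-1.11, SE 0.15, adjusted p = 4.07e-05), ATP6V0E1 stood at 0.516 times the HMLE-pBp level (-0.96, SE 0.070, adjusted p = 1.29e-07), and ATP6V0C was not called (adjusted p = 0.0617). ATP6V0C was called as lower without salinomycin replicate 1 of HMLE-pBp (0.025), mock replicate 1 (0.0472) or 3 (0.027) or salinomycin replicate 3 (0.0374) of HMLE-Twist, and with only these 2 groups in the fit (0.0441), and ATP6V1D as higher without salinomycin replicate 1 of HMLE-pBp (0.0462). The summed FPKM of the V0 and accessory genes over that of the V1 genes was 1.22, 1.19 and 1.49 in HMLE-Twist with salinomycin and 1.07, 1.29 and 1.49 with mock, and 2.11, 2.74 and 2.95 in HMLE-pBp with salinomycin and 3.23, 3.61 and 4.07 with mock. Every HMLE-Twist library was thus below every HMLE-pBp library, and within HMLE-pBp every salinomycin library was below every mock library. Most of the V0 sum came from ATP6V0E1, ATP6V0B and ATP6V0C, at means of 376.0, 206.6 and 197.5 of 922.0 FPKM in HMLE-pBp with mock. ATP6V0D1 went the other way with mock, at 57.5 FPKM in HMLE-Twist and 37.8 FPKM in HMLE-pBp. The recovered lengths of ATP6V0E1 and ATP6V1G1 were 0.615 and 1.49 times the reference, so the ratio does not give the relative amounts of the sectors.
The ATP6V1F call with mock was borderline (adjusted p = 0.0461) and was lost without any 1 of 8 libraries (0.0554 to 0.133), including mock replicates 2 and 3 of both lines. The ATP6V1G1 call with mock was lost without mock replicate 3 of HMLE-Twist (0.0854) or mock replicate 1 (0.0598) or 3 (0.0895) of HMLE-pBp. With salinomycin, the calls of ATP6V1B2, ATP6V1H and ATP6V0D1 were each lost without some single salinomycin library, at adjusted p values up to 0.121, 0.0841 and 0.056.

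**Figure D3:**
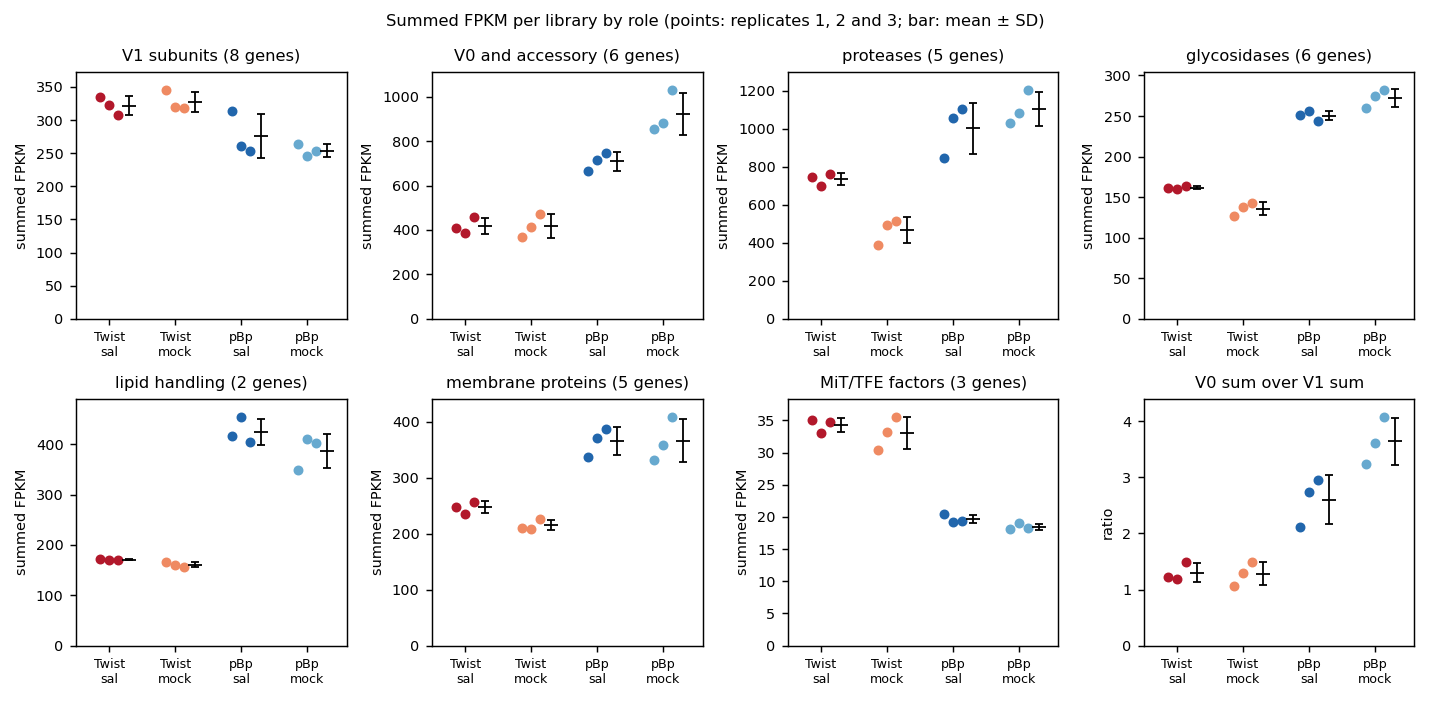
Summed FPKM per library (y axes, linear, from 0) of the genes of each role, and in the last panel the ratio of the V0 sum to the V1 sum, with points for the 3 replicates of each group and a bar for mean ± SD. Proteases of HMLE-Twist summed to 697.7 to 762.5 FPKM with salinomycin and 387.8 to 513.7 FPKM with mock, and the V0 sum of HMLE-pBp to 665.0 to 747.5 FPKM with salinomycin and 852.7 to 1029.7 FPKM with mock.

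Of the membrane proteins, LAMP1, LAMP2 and CLN3 were lower in HMLE-Twist in both conditions, at 0.66, 0.578 and 0.633 times the HMLE-pBp level with salinomycin and 0.51, 0.626 and 0.553 times with mock. MCOLN1 had 12.1, 10.7 and 13.4 FPKM in HMLE-Twist against 10.8, 15.3 and 16.1 FPKM in HMLE-pBp with salinomycin, which overlap (adjusted p = 0.39), and 6.72, 7.59 and 10.7 FPKM against 13.8, 17.0 and 21.2 FPKM with mock, which do not (adjusted p = 0.000513). SCARB2, the receptor that carries beta-glucocerebrosidase to the lysosome, was lower with salinomycin (0.798 times) and not called with mock (adjusted p = 0.0894), a call that without mock replicate 1 of HMLE-Twist was made (0.00678).
Of the MiT/TFE factors, MITF and TFE3 were higher in HMLE-Twist and TFEB was not called. MITF had 3.5, 3.73 and 3.45 FPKM in HMLE-Twist against 1.56, 1.24 and 1.01 FPKM in HMLE-pBp with salinomycin (log2 fold change 1.01, SE 0.12, adjusted p = 1.09e-05), and 6.67, 5.21 and 4.58 FPKM against 1.05, 1.16 and 1.04 FPKM with mock (1.63, SE 0.12, adjusted p = 1.07e-07). It was among the lowest of the 35 in every group, close to the pseudocount, so its fold is understated. TFE3, the most abundant of the 3 factors, was 1.77-fold higher in HMLE-Twist with salinomycin and 1.79-fold higher with mock. TFEB, at 2.58 to 5.57 FPKM over all 12 libraries, was not called between the lines (adjusted p = 0.546 with salinomycin and 0.369 with mock).

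**Figure D4:**
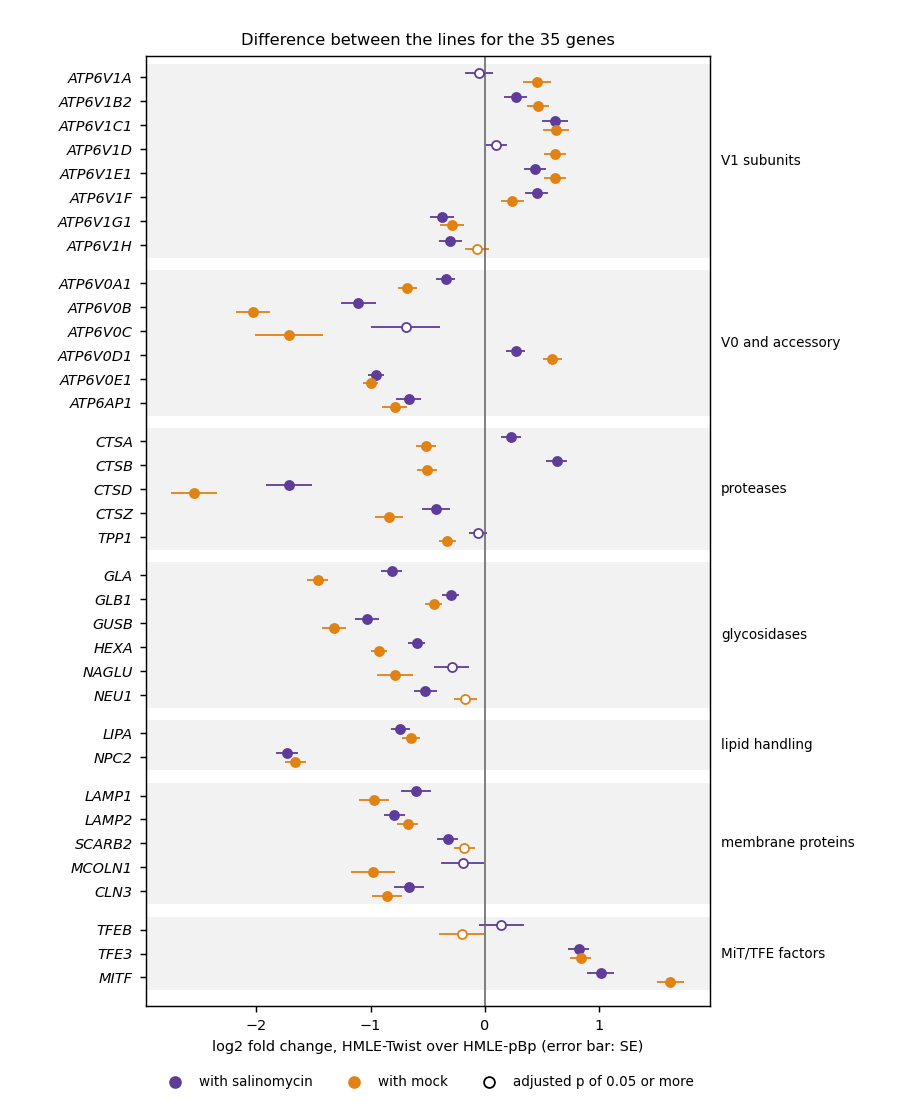
Log2 fold change of HMLE-Twist over HMLE-pBp (x axis, log2(FPKM + 1) scale) for each of the 35 genes, with salinomycin in purple above mock in orange, with the SE as error bar and filled points at an adjusted p under 0.05 (n = 3 libraries per group). Most V1 subunits, TFE3 and MITF lie to the right of 0 and the hydrolases and membrane proteins to the left, apart from CTSA and CTSB with salinomycin.

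Of the 9 genes with an E-box in the window, in HMLE-Twist 3 rose (CTSA, CTSD and NEU1) and none fell, with a median log2 fold change of 0.37, while of the 17 with a window but no E-box 2 rose (ATP6V0A1 and TPP1) and MITF fell, with a median of 0.12, where 12.8% of all tested genes rose and 13.5% fell. With pairing by replicate number 6 of the 9 rose (ATP6V0B, CTSA, CTSD, NEU1, LAMP1 and MCOLN1) and none fell, and of the 17 there were 5 rises (ATP6V0A1, ATP6V0C, CTSZ, TPP1 and GLA) and the fall of MITF, where 19.6% of all tested genes rose and 20.7% fell. In HMLE-pBp, 2 of the 9 rose (ATP6V0D1 and NEU1) and ATP6V0B fell, with a median of -0.05, while of the 17 there were 4 rises and 1 fall, with a median of 0.07, where 9.53% of all tested genes rose and 9.20% fell. With pairing in HMLE-pBp MCOLN1 fell too among the 9, and ATP6V0C and ATP6V1F among the 17, where 17.3% of all tested genes rose and 19.1% fell. The 9 genes without a window at hand are in neither group. In HMLE-Twist 3 of them rose (CTSB, HEXA and NAGLU) and 2 fell (ATP6V1A and ATP6V0E1), with a median of -0.04. In HMLE-pBp none rose and 2 fell (ATP6V0E1 and CTSB), with a median of 0.05, and pairing left these calls as they were in both lines. These are counts only, and the share of genes with a match was not tested against the calls.

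Other genes of the pathway were taken from lists of lysosome, V-ATPase and MiT/TFE genes. Of 39 other hydrolases and activators tested, 4 rose and 2 fell with salinomycin in HMLE-Twist (15.4% called, beside 26.2% of all tested genes) and 6 rose and 4 fell in HMLE-pBp (25.6%, beside 18.7%). Their median log2 fold changes were 0.10 and -0.15, beside -0.01 over all tested genes in each line. CTSL, cathepsin L, rose in HMLE-Twist by a log2 fold change of 1.04 (adjusted p = 0.000238), and its response was higher than in HMLE-pBp by 1.30 (adjusted p = 0.00189). PLBD2 rose by 0.51 in HMLE-Twist. DNASE2, a lysosomal DNase, rose in both lines, by 0.48 in HMLE-Twist and 0.40 in HMLE-pBp, the second a call lost without any 1 of 5 libraries of HMLE-pBp (up to 0.0783). ACP5, the tartrate-resistant acid phosphatase, rose in HMLE-pBp by 1.31 (adjusted p = 0.000235). CTSC fell in both lines, by 0.44 in HMLE-Twist (adjusted p = 0.0156) and 0.39 in HMLE-pBp (0.038). Its call in HMLE-Twist was lost in 2 of the alternatives run (up to 0.0755) and its call in HMLE-pBp in 7 (up to 0.145). ARSB and NAAA fell in HMLE-pBp by 0.45 (0.0226) and 0.41 (0.0122), calls lost in 4 and 1 of the alternatives (up to 0.0843 and 0.0595). Between the lines, 27 of the 39 were lower in HMLE-Twist with mock (69.2%) and 5 higher (12.8%). Of all tested genes, 37.3% were lower and 36.1% higher. The median log2 fold change of the 39 was -0.83, beside -0.003 over all tested genes, and the lowest were CTSH at -4.78 and CTSV at -4.44.

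Among 27 other lysosomal membrane proteins tested, 8 rose (29.6%) and none fell in HMLE-Twist, where 12.8% of all tested genes rose and 13.5% fell. In HMLE-pBp 4 rose and 4 fell (14.8% each), beside 9.53% and 9.20%, and the medians in HMLE-Twist and HMLE-pBp were 0.08 and -0.09. TPCN1, a lysosomal cation channel, rose in HMLE-Twist by 0.89 (adjusted p = 3.46e-05) and CLCN7, the lysosomal chloride-proton exchanger, by 0.88 (adjusted p = 0.00302). Their responses were higher in HMLE-Twist than in HMLE-pBp by 1.17 for both genes. TPCN1 was lower in HMLE-pBp by 0.28 (adjusted p = 0.04), a call lost in 9 of the alternatives run (up to 0.152). MCOLN2 and LAMP3 fell in HMLE-pBp by 0.64 (adjusted p = 0.00399) and 0.52 (0.00611), calls kept under every alternative that tested them. Neither was called in HMLE-Twist. SLC17A5, the sialic acid exporter, rose in both lines, by 0.83 in HMLE-Twist and 0.67 in HMLE-pBp. NPC1, the partner of NPC2 in cholesterol export, rose in both lines, by 0.70 in HMLE-Twist (adjusted p = 0.000328) and 0.45 in HMLE-pBp (adjusted p = 0.00846). Of 27 tested, 22 were lower in HMLE-Twist with mock (81.5%) and 4 higher, where 37.3% of all tested genes were lower and 36.1% higher.
Only 5 of 12 other V-ATPase genes passed the filter. ATP6AP2, an accessory protein of the pump, rose in both lines, by 0.33 in HMLE-Twist and 0.32 in HMLE-pBp, the second a call lost without salinomycin replicate 1 (0.0658) or mock replicate 1 (0.059) of HMLE-pBp. Of the 13 genes that tag and sort enzymes by mannose 6-phosphate, 1 rose and 1 fell in HMLE-Twist (15.4% called, beside 26.2% of all tested genes). In HMLE-pBp 1 rose (7.69%) and 4 fell (30.8%), beside 9.53% and 9.20% of all tested genes. IGF2R, a sorting receptor, rose by 0.42 in HMLE-Twist (adjusted p = 0.000781), and M6PR, the other such receptor, fell in HMLE-pBp by 0.37 (adjusted p = 0.00727). GGA2 had the largest change among the calls in HMLE-pBp, a fall of 0.48 (adjusted p = 0.00324), kept under every alternative that tested it. NAGPA fell there by 0.46 (0.0326), a call lost in 7 of the alternatives (up to 0.129). The sorting receptor SORT1 fell in both lines, by 0.44 in each. Its call in HMLE-Twist was lost with only the 2 groups in the fit (0.0631). Its call in HMLE-pBp was lost without salinomycin replicate 1 (0.0528) or mock replicate 1 (0.0502) of that line.

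Of 17 genes tested for the control of MiT/TFE factors by mTORC1 and the Rag GTPases, 4 rose and none fell in HMLE-Twist (23.5% called, beside 26.2% of all tested genes) and 4 rose and 2 fell in HMLE-pBp (35.3%, beside 18.7%). FLCN, the folliculin that acts on RagC and is itself a known target of these factors, rose by 0.55 in HMLE-Twist (adjusted p = 0.000826). It was not called in HMLE-pBp (0.0578, adjusted p = 0.674). FNIP1 had the largest change of the list in each line, a rise of 0.628 in HMLE-Twist and 0.695 in HMLE-pBp, calls lost without some single libraries (up to 0.0639 and 0.0649). TSC1 rose by 0.414 in HMLE-Twist and 0.395 in HMLE-pBp, the second a call also lost without some single libraries (up to 0.075). The 2 falls in HMLE-pBp were LAMTOR4, by 0.515 (adjusted p = 0.0307), and LAMTOR1, by 0.383 (adjusted p = 0.00692). The LAMTOR4 call was lost in 6 of the alternatives run (up to 0.123), and that of LAMTOR1 was kept under every alternative that tested it. Of 10 tested MiT/TFE targets outside the lysosome, SQSTM1, an autophagy receptor, and WIPI1, an autophagosome factor, rose in HMLE-Twist, by 1.56 (adjusted p = 4.24e-05) and 1.44 (adjusted p = 1.86e-05). Both rose in HMLE-pBp too, WIPI1 by 1.54 (adjusted p = 1.53e-05) and SQSTM1 by 0.70 (adjusted p = 0.0097), together with MAP1LC3B and GPNMB. The MAP1LC3B call was lost without mock replicate 2 (0.0636) or 3 (0.0695) of HMLE-pBp, and that of GPNMB, which averaged 0.863 FPKM with salinomycin and 0.363 FPKM with mock in this line, without any 1 of 8 libraries (0.0514 to 0.142). In all 2 of the 10 rose in HMLE-Twist and 4 in HMLE-pBp, and none fell in either line, beside 12.8% of all tested genes rising in HMLE-Twist and 9.53% in HMLE-pBp. CD68, counted here as a leukocyte marker but itself a lysosomal membrane glycoprotein, rose by 0.67 in HMLE-Twist (adjusted p = 0.000154), where it averaged 37.6 ± 2.29 FPKM with salinomycin and 23.4 ± 1.78 FPKM with mock (SD, n = 3 each), while PTPRC averaged 0.0079 FPKM with salinomycin and 0.0145 FPKM with mock, and TYROBP was at 0. The part of other cells in these changes was not tested.

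Some levels rest on gene lengths that differ from the reference annotation. The length recovered from the tables was 8.1 times the reference for NEU1, 1.7 times for LAMP2 and 1.49 times for ATP6V1G1, and 0.443 times for HEXA, 0.583 times for CLN3, 0.615 times for ATP6V0E1 and 0.737 times for CTSA. Levels of these genes per length are therefore not comparable with those of the other genes, while the length cancels in fold changes except through the pseudocount. Where the recovered length is short because a multiple of the mock reads was missed, the salinomycin fold change would be too high in both lines alike and the difference of responses would not.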

How the data were processed

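The authors deposited 4 tables, 1 per group of 3 libraries. Per the labels, 750 ng of RNA per sample went into a stranded mRNA kit, and paired reads of 75 cycles each were taken. The build is hg19 and the authors used DESeq2 (1.1.0), per the submitters' processing notes. Aligner and read counter: not given in the sources used here. In the deposited mock tables the authors give FPKM, scaled table by table. The deposited salinomycin tables are named FPKM but hold log2 values with the spread between libraries shrunk, inferred here from the values. Whole reads were recovered: each mock gene's values are whole multiples of 1 step, and the log2 values were turned back into reads by solving the negative binomial equations of their shrinkage, after which 96.7% (HMLE-Twist) and 95.4% (HMLE-pBp) of salinomycin values lay within 0.1 of a whole read (38.1% and 43.3% for genes over 10000 reads, where the largest distance was 0.0431% and 0.0445% of the value). 465 genes with an unsettled multiple of their reads were left out, among them PSAP, a lysosomal activator.

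FPKM was rebuilt for the 12 libraries together, scaled by the median of ratios. A gene entered the single limma fit if 3 or more of the 12 libraries reached 1 FPKM (limma 3.58.1, R 4.3.3, eBayes with trend) on log2(FPKM + 1), and p-values were Benjamini-Hochberg adjusted over all 11892 genes. The fit was also run on simulated reads, drawn independently for each library. They lacked the deviations that replicates share here, so that run does not bear on the p-values of these data. Within each line, same-numbered salinomycin and mock libraries deviated together (correlations of deviations over genes 0.452, 0.428 and 0.718 in HMLE-Twist and 0.534, 0.221 and 0.593 in HMLE-pBp), so the replicate number was used as a block within the line beside the main fit. Between lines the correlation of replicate 2 was 0.0374 with salinomycin and 0.063 with mock, so lines were not paired. Replicate 1 gave 0.28 with salinomycin and 0.257 with mock, and replicate 3 gave 0.596 and 0.564. Replicate 3 thus deviated together across the lines too, and a block over all 12 libraries was run as an alternative. The labels call the samples biological triplicates, and p-values measure the spread between them. Replicates of a group differed by far more than counting noise (chi-square over degrees of freedom 8.62 to 68.0).

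Every one of the 35 genes is named, at most the 6 of largest change per comparison with full statistics. The called genes named from each other list are among its 4 of largest change in some comparison. The genes, lists, tests and alternatives were chosen with earlier results of these data known. Promoter windows come from RefSeq (GRCh38.p14), a build other than that of the files, and serve only for sequence. Recovered depth was 17.93 to 26.76 megareads per library.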

Additional observations from a re-analysis of the deposited data

Results flagged for a closer look

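For 7 of the 35 genes the salinomycin response differed between the lines by the limma test of the difference, HMLE-Twist minus HMLE-pBp, on the log2 scale. The difference was 1.14 for CTSB, 0.92 for ATP6V0B, 0.74 for CTSA, 0.65 for GLA and 0.33 for HEXA, and it was -0.61 for MITF and -0.51 for ATP6V1D. In the fit without pairing, CTSB was called in opposite directions in the 2 lines, higher with salinomycin in HMLE-Twist and lower in HMLE-pBp, while of the other 6 CTSA, HEXA and MITF were called in HMLE-Twist and ATP6V0B, GLA and ATP6V1D in HMLE-pBp. With the replicate number as a block within each line, ATP6V0B and GLA were called in opposite directions too, higher with salinomycin in HMLE-Twist (adjusted p = 0.00746 and 0.0351) and lower in HMLE-pBp (0.00264 and 0.00116).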

How the results depend on the processing

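No call among the 35 genes turned its direction under any alternative run. All 5 comparisons were rerun with pseudocounts of 0.1 and 5, without the filter, with a mean FPKM of at least 5, with TMM scaling, as TPM, with reference lengths, with no gene left out, with a replicate block and without each library, and, between the lines, on the deposited values of each pair of tables. Calls held under every alternative for 6 of 11 genes in HMLE-Twist (ATP6V0E1, CTSA, CTSB, TPP1, HEXA and MITF), 5 of 10 in HMLE-pBp (ATP6V1D, ATP6V0E1, TPP1, GLA and NEU1), 3 of 7 in the difference of responses (CTSB, CTSA and GLA), and 29 of 31 (mock) and 24 of 28 (salinomycin) between the lines. With only the 2 groups in the fit, 7 of the 35 were called in HMLE-Twist. With the replicate block within each line, 17 were called in HMLE-Twist and 16 in the difference, and over all genes 4785 in HMLE-Twist, 4330 in HMLE-pBp and 3854 in the difference, beside 3120, 2227 and 1611 without it. With 1 replicate block over all 12 libraries, these were 3973 genes in HMLE-pBp and 3460 in the difference, with 16 of the 35, and between the lines it called 30 (salinomycin) and 32 (mock) of the 35. Without single libraries the counts of the 35 ran over 7 to 14 in HMLE-Twist, 5 to 10 in HMLE-pBp, 4 to 11 in the difference, 25 to 30 between lines with salinomycin and 29 to 32 with mock. Over all genes they ran over 2185 to 3433, 1127 to 3117, 773 to 2360, 6770 to 8075 and 8026 to 8827. As TPM, 12 of the 35 rose and 2 fell in HMLE-Twist, and 5 against 1 in the difference, where 62.0% of all calls were higher beside 51.2%. The cause was not tested. MITF and TFEB fail the filter at a mean FPKM of 5. A limma voom fit on the recovered reads, chosen after seeing the data, called 11, 9, 5, 29 and 31 of the 35 in the same order. The planned edgeR and DESeq2 tests on recovered reads were not run, because these tools were kept for deposited counts and no deposited column holds counts.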
